A study of Homo sapiens with 14 samples.

Results

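The nuclear genes for the proteins of the mitochondrial ribosome were followed in a ChIP-seq count table of RNA polymerase II at gene starts in HCT116, a human colorectal carcinoma cell line with wild-type p53. The genes were picked by name: rows with a coding transcript accession and a symbol of the form MRPL or MRPS followed by a number. The choice of this gene set was made with earlier results of these data known. This gave 71 of the 28159 genes in the table, 43 with an MRPL symbol (named for the large subunit) and 28 with an MRPS symbol (named for the small subunit). All 71 had enough counts to be tested in every comparison.

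The antibody recognises RNA polymerase II with phosphate on Ser5 of the repeats in its tail, the form found at gene starts early in transcription. All cells were of the same line and all were electroporated, either with water or with a bivalent stapled peptide at 10 µM, which the study's title describes as a block on the contact between p53 and Mediator. The split cells then spent 3 h in either 0.1% DMSO or 10 µM Nutlin3a, a compound that releases p53 from MDM2, and medium for peptide-treated cells held 200 nM more of it. Without peptide, each of DMSO and Nutlin3a had 2 ChIP libraries, and with peptide each had 1. Each of the 4 conditions had 2 inputs, sheared chromatin sequenced without immunoprecipitation. The labels did not say whether libraries of a condition came from separate cultures, so p-values measure the spread between these libraries, which may be technical.

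The mitochondrial ribosome translates the few membrane subunits of oxidative phosphorylation that mitochondrial DNA encodes. Its ribosomal RNAs are also mitochondrial, while its proteins are encoded in the nucleus, transcribed by RNA polymerase II, made in the cytosol and imported. Some of them descend from bacterial ribosomal proteins and others, called mitospecific here, have no bacterial counterpart. NRF1, the ETS factor GABP and YY1 are nuclear factors known to bind promoters of many mitochondrial genes.

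The table gave whole-number read counts in 1 window of 1000 bp per gene. Among genes with a RefSeq start inside their window, the window held 300 bp before the start in 82.5% of plus-strand genes and 700 bp before it in 87.8% of minus-strand genes, so the placement ignored strand. Of the 63 genes of the mitochondrial ribosome with such a start, 23 of 31 plus-strand and 28 of 32 minus-strand genes had these placements. A window of another gene overlapped theirs in 26 of 71 cases (36.6%), against 21.98% of all windows. In 17 of the 18 cases where the strand of the partner was known it was the opposite strand. Neighbours on the opposite strand included HIRA, a histone chaperone, beside MRPL40 (832 bp shared), SKA3, a kinetochore protein, beside MRPL57 (895 bp) and SARS2, the mitochondrial seryl-tRNA synthetase, beside MRPS12 (944 bp). The window of TWNK, the mitochondrial DNA helicase, shared 955 bp with that of MRPL43, and that of EME2 907 bp with that of MRPS34. MRPS11 and MRPL46, both of this group, shared 681 bp. ChIP reads carry no transcript strand, so signal in an overlapped window cannot be assigned to either gene, and values below are values of windows.

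Promoter sequences from RefSeq (GRCh38.p14, the hg38 coordinates of the table) were matched to 63 of the 71 genes. The stretches shown run from 100 bases before the start to 50 after it, 5′ to 3′ in the direction of transcription, for the 4 genes with the highest and the 3 with the lowest ChIP signal relative to input among those with the usual window placement. Capitals mark the letters CCGGAAG (an ETS/GABP motif), AAGATGG (a YY1 motif) or GCATGCG (an NRF1 core) on either strand. The 4 with the highest signal relative to input were as follows.
MRPL3 (chr3:131502922-131503071, minus strand): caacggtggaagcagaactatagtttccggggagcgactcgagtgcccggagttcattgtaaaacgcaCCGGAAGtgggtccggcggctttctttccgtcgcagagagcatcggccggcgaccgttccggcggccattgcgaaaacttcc
MRPL12 (chr17:81703267-81703416, plus strand): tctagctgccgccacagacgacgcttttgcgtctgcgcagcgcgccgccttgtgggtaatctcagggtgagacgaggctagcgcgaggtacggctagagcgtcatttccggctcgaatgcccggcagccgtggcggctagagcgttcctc
MRPL53 (chr2:74472631-74472780, minus strand): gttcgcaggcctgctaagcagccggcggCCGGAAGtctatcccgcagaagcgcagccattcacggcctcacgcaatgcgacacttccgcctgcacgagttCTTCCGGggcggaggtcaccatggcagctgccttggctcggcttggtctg
MRPL57 (chr13:21176558-21176707, plus strand): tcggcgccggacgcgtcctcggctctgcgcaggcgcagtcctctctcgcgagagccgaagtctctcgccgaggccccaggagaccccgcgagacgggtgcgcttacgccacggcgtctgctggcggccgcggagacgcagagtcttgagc
The 3 with the lowest signal relative to input were as follows.
MRPL44 (chr2:223957363-223957512, plus strand): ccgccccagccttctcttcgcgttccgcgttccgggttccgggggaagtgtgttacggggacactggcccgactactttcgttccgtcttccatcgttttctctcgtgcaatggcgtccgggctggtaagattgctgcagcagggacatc
MRPS31 (chr13:40771141-40771290, minus strand): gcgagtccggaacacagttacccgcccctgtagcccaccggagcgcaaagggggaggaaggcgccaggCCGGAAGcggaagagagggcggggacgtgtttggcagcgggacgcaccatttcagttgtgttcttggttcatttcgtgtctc
MRPL11 (chr11:66438799-66438948, minus strand): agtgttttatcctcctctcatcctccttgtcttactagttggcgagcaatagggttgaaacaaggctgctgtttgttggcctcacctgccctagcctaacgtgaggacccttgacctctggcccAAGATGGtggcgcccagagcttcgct
Among the high group, MRPL3 held 1 ETS/GABP motif and MRPL53 held 2, while MRPL12 and MRPL57 held none of the 3 motifs in this stretch. Among the low group, MRPS31 held an ETS/GABP motif and MRPL11 a YY1 motif whose ATG lies just inside the transcript.

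Across 300-base promoters (250 bases before the start to 50 after it, both strands searched), CCGGAAG was found in 26 of the 63 matched genes (41.3%), against 15.0% of the 13276 promoters of coding genes in the table and 10.2% of 34943 RefSeq promoters. AAGATGG was found in 21 of 63 (33.3%), against 6.49% of the coding promoters and 5.85% of all. ACTACAA, a ZNF143 motif, stood in 9.52% against 3.09% of coding promoters, and GCATGCG in 9.52% against 5.32%. The other motifs searched were at or below the share in coding promoters or close to it: CACGTG (E-box) 9.52% against 8.90%, TGACGT (cAMP element) 6.35% against 9.90%, GGGCGG (GC box) 60.3% against 63.3%, CCAAT 30.2% against 36.2% and TATAAA 3.17% against 8.84%. Of the 63 genes, 40 held at least 1 of the ETS/GABP, YY1 and NRF1 motifs. The same share over the coding promoters was not computed, so this count has no background beside it. The letters of the ETS/GABP and YY1 motifs can share bases, but in the 9 promoters with both they did so in 0. A match says only that the letters are present. Median GC content was 60.3% in these promoters (range 47.3% to 82.0%) and 58.7% over all promoters.

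**Figure D1:**
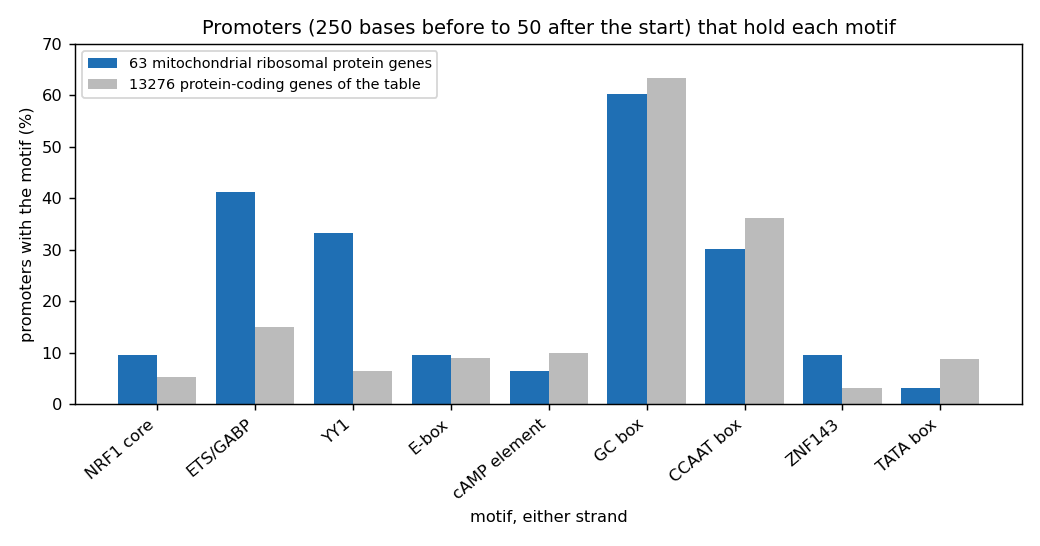
Share of promoters (%, 250 bases before to 50 after the start, either strand) that hold each motif, for 63 mitochondrial ribosomal protein genes (blue) and 13276 coding genes of the table (grey). The bars differ most for the ETS/GABP motif (41.3% against 15.0%) and the YY1 motif (33.3% against 6.49%).

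Depth limited the inputs more than the ChIP libraries. Total window counts were 1290223 to 2240951 in the ChIP libraries and 161719 to 359276 in the inputs. A mitochondrial ribosomal protein gene had 21 to 598 reads in a ChIP library (median 115) and 0 to 42 in an input (median 11), with at least 1 input at 0 reads in 12 of the 71 genes. Levels are given as CPM, counts per 1000000 window counts of a library, with TMM factors over all 14 libraries, a scaling that sets the bulk of windows equal between libraries. The labelled cell type was checked by markers: of colon epithelial genes 5 of 11 tested were higher than input (KRT8, KRT18, KRT19, CLDN4 and EPCAM) and 0 lower, with a median log2 fold of 0.08. Another 5 lay below 0 without passing, down to -1.19 at LGALS4, and CDX2, an intestinal transcription factor, was at 0.08. Blood genes (0 of 7 tested higher than input), mesenchymal genes (0 of 6) and genes silent in this tissue (0 of 11) had no gene higher than input. The Nutlin3a replicate 1 library had the highest summed level of the silent genes and of the mesenchymal genes, 163 CPM each, against 116 to 151 CPM and 57.3 to 108 CPM in the other ChIP libraries. It also had the fewest counts.

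Ser5 polymerase was higher in ChIP than in input at 41 of these genes and lower at none. These counts, 41 of 71 higher and 0 lower (edgeR quasi-likelihood test, Benjamini-Hochberg adjustment over 21504 windows, adjusted p under 0.05), stand against 25.1% of all windows higher and 15.5% lower. The count was 34 with DESeq2's size factors, 28 with total counts and 33 without DMSO replicate 1. The median log2 fold over input was 0.81, against -0.04 over all windows, and it was above 0 in 70 of 71 genes. In 25 genes (35.2%) every ChIP library lay above every input, which held for 13% of all windows, and in 0 did every ChIP library lie below every input, against 3.45% of all windows. The genes together took 0.515% to 0.566% of the window counts in the ChIP libraries and 0.283% to 0.382% in the inputs, and the exact 95% intervals of these shares reached down to 0.504% in the first and up to 0.413% in the second. These intervals cover counting error only. Median levels per library were 67.8 to 79.6 CPM in ChIP and 35.2 to 47.1 CPM in input.

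**Figure D2:**
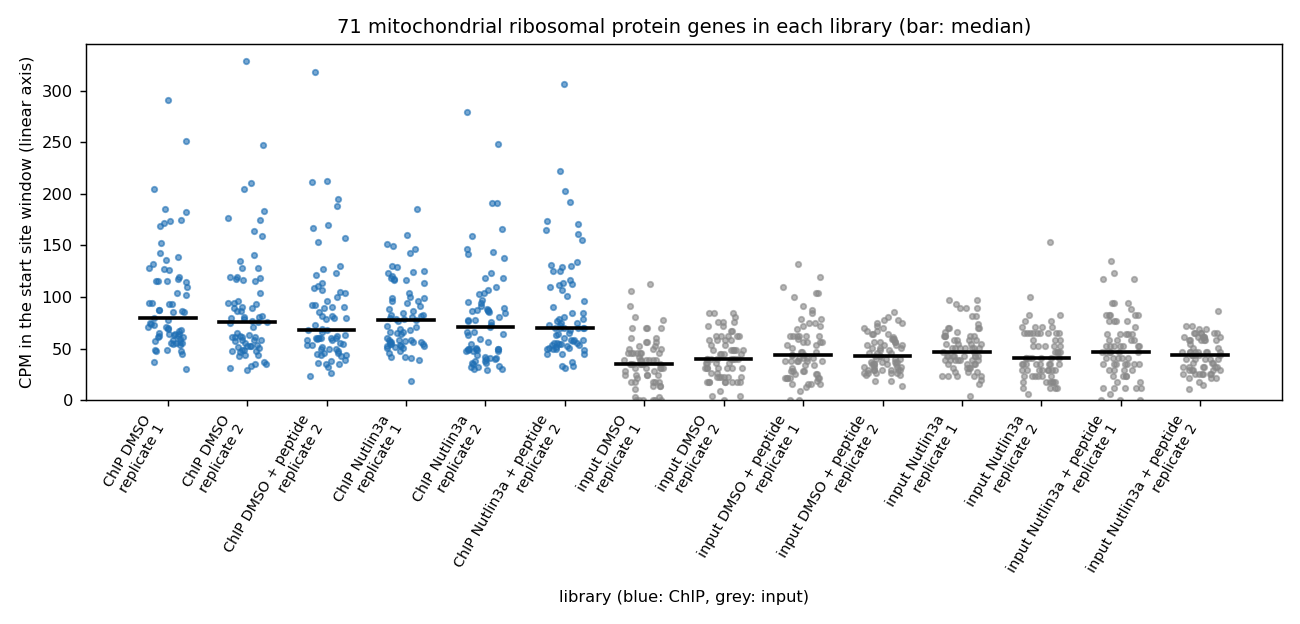
Level in the start-site window (CPM, linear axis) of each of the 71 genes (points) in the 6 ChIP (blue) and 8 input (grey) libraries, with the median as a bar. ChIP medians lie between 67.8 and 79.6 CPM and input medians between 35.2 and 47.1 CPM, and the highest ChIP point is MRPL12 in every library.

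The levels of the genes spanned 8.23-fold, from a mean of 34.6 CPM at MRPL28 to 285 CPM at MRPL12, and 21 genes averaged over 100 CPM. MRPL12, the L7/L12 protein of the stalk that recruits translation factors, had 291 and 329 CPM in the 2 DMSO libraries, 185 and 279 CPM in the 2 Nutlin3a libraries, 318 CPM in DMSO with peptide and 307 CPM in Nutlin3a with peptide. Its inputs ran from 10.6 to 91.0 CPM with a median of 70.2, so no ChIP library overlapped any input. The fold over input was 4.60 (log2 2.20 ± 0.25, SE; edgeR adjusted p = 5.74e-08). After MRPL12 came MRPL40 (223 CPM), MRPL20 (191 CPM), MRPL53 (185 CPM) and MRPS26 (162 CPM). The 5 lowest were MRPL28 (34.6 CPM), MRPL11 (38.4 CPM), MRPL35 (39.4 CPM), MRPS18A (42.4 CPM) and MRPS31 (44.0 CPM).

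Proteins of the same part of the ribosome had windows of very different signal, as the stalk shows. MRPL12 is described above. MRPL53, a mitospecific protein at the stalk, had 182 and 211 CPM in DMSO, 151 and 166 CPM in Nutlin3a, 195 CPM in DMSO with peptide and 202.75 CPM in Nutlin3a with peptide, against inputs of 17.7 to 82.3 CPM. It was 4.10-fold over input (log2 2.03 ± 0.24 SE, edgeR adjusted p = 9.2e-08). MRPL54, another mitospecific protein of this region, had a log2 fold of 0.30 ± 0.30 (SE), which did not pass. MRPL11, which forms the stalk base, was the only gene below input, with 30.6 and 31.5 CPM in DMSO, 41.3 and 32.3 CPM in Nutlin3a, 39.0 CPM in DMSO with peptide and 55.4 CPM in Nutlin3a with peptide. Its inputs ran from 25.3 to 118 CPM and overlapped the ChIP values, and its log2 fold was -0.32 ± 0.30 (SE, edgeR adjusted p = 0.388). MRPL10, the stalk protein that carries L7/L12, was listed with a non-coding accession and so falls outside the 71; it was higher in ChIP than in input, with a log2 fold of 0.90 ± 0.24 (SE, edgeR adjusted p = 0.00369).

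Around the catalytic centre and exit tunnel of the large subunit, MRPL3, whose bacterial relative lies near the peptidyl transferase centre, had the highest fold of all 71, 5.19 (log2 2.38 ± 0.41 SE, edgeR adjusted p = 4.3e-05). Its ChIP level was modest, 59.0 and 55.8 CPM in DMSO, 65.9 and 32.3 CPM in Nutlin3a, 46.1 CPM in DMSO with peptide and 54.4 CPM in Nutlin3a with peptide. Its input was the lowest of the 71, 0 to 29.4 CPM with a median of 11.3, that is 0 to 10 reads per library, so the fold rests on few input reads. MRPL24 (2.75-fold), MRPL41 (2.44-fold), MRPL36 (2.42-fold), MRPL16 (2.00-fold), MRPL22 (1.85-fold), MRPL15 (1.79-fold) and MRPL27 (1.68-fold) also passed. With total counts MRPL16, MRPL22, MRPL15 and MRPL27 no longer did (edgeR adjusted p = 0.0618, 0.133, 0.0626 and 0.101), and MRPL22 also missed the threshold with DESeq2's size factors (adjusted p = 0.0803) and without DMSO replicate 1, DMSO replicate 2 or Nutlin3a replicate 1 (adjusted p = 0.0920, 0.0646 and 0.0936). MRPL27 missed it without DMSO replicate 1 (adjusted p = 0.0553). In the DMSO libraries without peptide alone MRPL41, MRPL16, MRPL22 and MRPL15 missed the threshold (edgeR adjusted p = 0.0608, 0.225, 0.0857 and 0.166). MRPL23, a protein of the tunnel exit, was 3.00-fold over input. MRPL4 (log2 0.55 ± 0.23 SE), MRPL13 (0.48 ± 0.34), MRPL45 (0.44 ± 0.25), which ties the ribosome to the inner membrane, MRPL37 (0.30 ± 0.24) and MRPL44 (0.19 ± 0.27) did not pass. For MRPL44, ChIP levels of 29.5 to 55.7 CPM lay over inputs of 31.3 to 52.99 CPM.

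In the small subunit, MRPS26 (3.54-fold), MRPS2 (3.14-fold), MRPS34 (2.56-fold), MRPS16 (2.42-fold), MRPS28 (2.34-fold), MRPS24 (2.10-fold), MRPS12 (2.01-fold), whose bacterial relative is part of the decoding centre, and MRPS7 (1.63-fold) were higher in ChIP. MRPS7 missed the threshold with DESeq2's size factors, with total counts and without DMSO replicate 1 (edgeR adjusted p = 0.0581, 0.119 and 0.0521), and MRPS24 with total counts (adjusted p = 0.0583). In the DMSO libraries without peptide alone MRPS12, MRPS24 and MRPS7 missed the threshold (edgeR adjusted p = 0.0740, 0.0732 and 0.113). MRPS14 (log2 0.73 ± 0.31 SE) and MRPS22 (0.33 ± 0.33) did not pass. The MRPS18 paralogs differed in their calls: MRPS18B was 2.26-fold over input (edgeR adjusted p = 0.00872), while MRPS18A had a log2 fold of 0.66 ± 0.36 (SE) and MRPS18C of 0.41 ± 0.29 (SE), neither past the threshold. In the DMSO libraries without peptide alone MRPS18B missed the threshold (edgeR adjusted p = 0.125). The window of MRPS18B shared 404 bp with that of PPP1R10, and the window of MRPS18C 892 bp with that of HELQ. The differences among the paralogs were not tested. MRPS18A and MRPS30 carry small-subunit names although their proteins sit in the large subunit, and MRPS30 was 1.62-fold over input (edgeR adjusted p = 0.0331). Its call was lost with DESeq2's size factors (adjusted p = 0.114), with total counts (0.204) and without any 1 of the 4 libraries of DMSO and Nutlin3a (0.0850 to 0.120). MRPS36, now assigned to a metabolic enzyme complex rather than to the ribosome, had a log2 fold of 0.52 ± 0.26 (SE), which did not pass.

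Grouped by symbol, 25 of 43 MRPL genes (median log2 fold 0.81) and 16 of 28 MRPS genes (0.80) were higher than input. By origin, 26 of 42 with a bacterial relative (0.88) and 14 of 27 mitospecific genes (0.74) were higher. MRPS36 and MRPL58 were in neither group, and MRPS18A was counted as mitospecific although it is a paralog of MRPS18B and MRPS18C. Of genes with an ETS/GABP motif 17 of 26 were higher (0.96) and of those without it 21 of 37 (0.78), and of genes with a YY1 motif 12 of 21 were higher (0.74) and of those without it 26 of 42 (0.90). Windows free of overlap gave 26 of 45 higher (0.88) and overlapped windows 15 of 26 (0.73). Minus-strand genes with the usual placement gave 18 of 28 (0.98) and plus-strand genes 14 of 23 (0.74), where all windows of these placements had medians of 0.14 and 0.07. None of these pairs of groups was tested against each other.

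**Figure D3:**
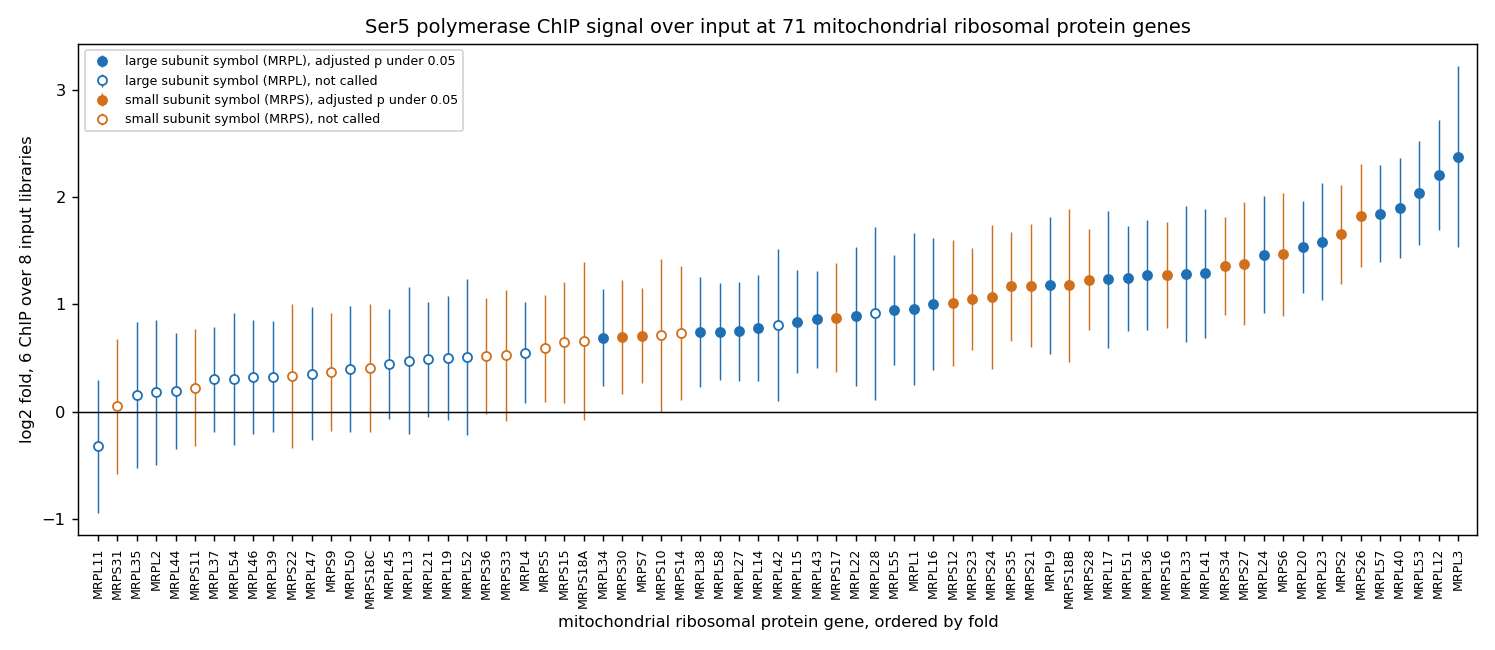
Log2 fold of the 6 ChIP libraries over the 8 inputs at each of the 71 genes, ordered by size, with 95% intervals from edgeR; filled points passed an adjusted p of 0.05, blue for MRPL and orange for MRPS symbols. MRPL symbols run from MRPL11 at -0.32 to MRPL3 at 2.38 and hold both ends. MRPS symbols lie between, from 0.05 to 1.83.

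The call is relative to other windows and depends on which of them enter. With only windows averaging at least 50 counts, which leaves 41 of the 71 genes and scales them against other strong windows, 7 were higher (MRPL12, MRPL53, MRPL57, MRPL40, MRPS26, MRPS2 and MRPL20) and 1 lower (MRPL37). Across the 71 genes, those with a higher mean input level also had a higher mean ChIP level (Spearman 0.65, n = 71 genes in the same libraries). The 7 genes on chromosome 17 (MRPL12, MRPS7, MRPL38, MRPS23, MRPL58, MRPL27 and MRPL45) had a median input of 72.4 CPM, against 43.4 CPM for the other 64, and all windows on that chromosome 39.1 CPM against 26.6 CPM elsewhere, so a ChIP level there is compared with a higher input.

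Other genes of mitochondrial translation were read beside these. Of assembly and RNA-modifying factors 14 of 28 tested were higher than input, of translation factors 10 of 16, of mitochondrial aminoacyl-tRNA synthetases 11 of 17, and of mitochondrial transcription factors and nuclear regulators 9 of 14 with 1 lower. Their median log2 folds were 0.64, 0.89, 0.92 and 1.06. MTERF3, an assembly factor, had a mean of 222 CPM (log2 fold 1.76), PDF, the mitochondrial deformylase, 223 CPM (1.85), and AARS2, the alanyl-tRNA synthetase, 67.5 CPM (1.94). TUFM, the mitochondrial elongation factor Tu, had 76.7 CPM and a log2 fold of 0.63 (edgeR adjusted p = 0.0508). The regulators MYC (505 CPM, 3.29), GABPB1 (184 CPM, 1.99), NRF1 (118 CPM, 1.74) and TFAM (90.5 CPM, 1.40) were higher, and PPARGC1A, a coactivator of mitochondrial biogenesis, was the gene lower than input (14.2 CPM, -1.48). Cytosolic ribosomal protein genes had more signal over input: 73 of 77 were higher and 2 lower, with a median log2 fold of 1.82 and a median of 156 CPM, against 0.81 and 71.9 CPM for the mitochondrial set. The difference between the 2 sets was not tested.

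Nutlin3a left no mitochondrial ribosomal protein gene past the threshold after 3 h. Against DMSO, without peptide, 0 of 71 were higher and 0 lower (edgeR quasi-likelihood test over 25901 windows), where 0.00772% of all windows were higher and 0% lower. At an unadjusted p under 0.05 the counts were 0 higher and 1 lower, where 1.27% of all windows were higher and 1.05% lower, and DESeq2 and limma-voom also called 0. The median log2 change was -0.15 and 16 of 71 values (22.5%) were above 0. Of the windows higher than input 17.8% were above 0, and of all windows 54.1%. Over all windows the median was 0.04, over the windows higher than input it was -0.18, and over cytosolic ribosomal protein genes -0.24. Direct p53 target genes, the check that Nutlin3a acted, had a median of 0.85, with 19 of 20 above 0; CDKN1A, the p53-induced cell cycle inhibitor, had 1.39 ± 0.25 (SE, edgeR adjusted p = 0.109), so this design left even that gene short of the threshold. Other marker lists also lay above 0 in this comparison: mesenchymal genes had a median of 0.90 with 8 of 8 above 0, and silent tissue genes 0.49 with 11 of 13 above 0, none of them called. The silent and mesenchymal genes had median log2 ratios of 0.69 and 1.39 within replicate 1 but -0.02 and 0.22 within replicate 2, where the p53 targets had 0.65 and 0.99. The part of these shifts in the values of the mitochondrial genes was not tested. For 68 of the 71 mitochondrial genes the 95% interval of the change lay within a 2-fold rise or fall.

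MRPS30 had the smallest p. It had 74.6 and 65.3 CPM in DMSO and 51.0 and 47.4 CPM in Nutlin3a, so both Nutlin3a libraries lay below both DMSO libraries. With peptide it had 89.6 CPM in DMSO and 74.9 CPM in Nutlin3a. The log2 change without peptide was -0.50 ± 0.24 (SE, edgeR adjusted p = 0.982), and the window shares 847 bp with that of MRPS30-DT, its divergent transcript. MRPL28 followed, with 37.3 and 52.2 CPM in DMSO and 18.5 and 36.4 CPM in Nutlin3a (log2 change -0.68 ± 0.36 SE). MRPS34 had 175 and 183 CPM in DMSO and 104 and 159 CPM in Nutlin3a (-0.43 ± 0.24). Values above 0 with the smallest p were those of MRPL11 (0.25 ± 0.30), MRPS17 (0.14 ± 0.23) and MRPS14 (0.17 ± 0.30), all with adjusted p of 0.982. MRPS14 had 48.4 and 46.9 CPM in DMSO and 69.4 and 38.4 CPM in Nutlin3a, so its replicates went opposite ways, and without Nutlin3a replicate 1 its value was -0.30.

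Both Nutlin3a libraries lay below both DMSO libraries at 21 genes (29.6%), where 16.3% of all windows did so, and above both at 1 gene, MRPL11 (1.41%), where 15.9% of all windows did. The 21 included MRPL12, MRPL20, MRPL53, MRPL57, MRPS34, MRPS2 and MRPS7. Within replicate 1 the median log2 ratio of Nutlin3a to DMSO was -0.20 with 50 of 71 lower, and within replicate 2 it was -0.07 with 47 lower. The windows higher than input had medians of -0.27 and -0.08 in the same pairs. A lower value in both replicates was found for 31 genes (43.7%), against 54.4% of the windows higher than input and 25.7% of all windows, and a higher value in both for 5 (7.04%), against 8.03% and 30.4%. The difference from the other windows was not tested.

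The Nutlin3a replicate 1 library gave the lowest of the 6 ChIP levels at 12 of the 20 genes with the highest mean level, and the Nutlin3a replicate 2 library at 11 of the 20 genes with the lowest. MRPL12 showed the first pattern, at 185 CPM against 279 to 329 CPM in the other 5 libraries, as did MRPL40, at 160 CPM against 212 to 251 CPM. MRPL44 showed the second, at 29.5 CPM against 49.3 to 55.7 CPM. Over all 71 genes Nutlin3a replicate 1 was the lowest library at 23 and Nutlin3a replicate 2 at 22. The genes were ranked by the mean of the same 6 libraries. Shares over all windows were not computed, so whether these counts are particular to this gene set is not known. Nutlin3a replicate 1 is the library with the highest level at silent genes given above, and the part of that difference in these values was not tested. Without it the median change of the 71 genes was -0.23, without Nutlin3a replicate 2 it was -0.10, without DMSO replicate 1 -0.09 and without DMSO replicate 2 -0.26. The sign of the median also depends on scaling: with the constants by which the authors scaled each ChIP library it was 0.36, but the median of all windows then moved from 0.04 to 0.53, so the genes were again below it.

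With peptide, the Nutlin3a to DMSO ratio could be read only from 1 library against 1, with no replicate check. The median log2 ratio was 0.05, with 28 genes lower and 43 higher, against 0.02 for the windows higher than input. Of the 31 genes lower in both pairs without peptide, 14 were lower with peptide too and 17 were higher. The 31 were chosen for low values without peptide, and the same split over other windows was not computed. MRPL12 had 318 CPM in DMSO and 307 CPM in Nutlin3a, MRPL20 212 and 192 CPM, and MRPL57 188 and 161 CPM. MRPL13 had the highest ratio, 26.2 CPM in DMSO and 48.2 CPM in Nutlin3a.

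**Figure D4:**
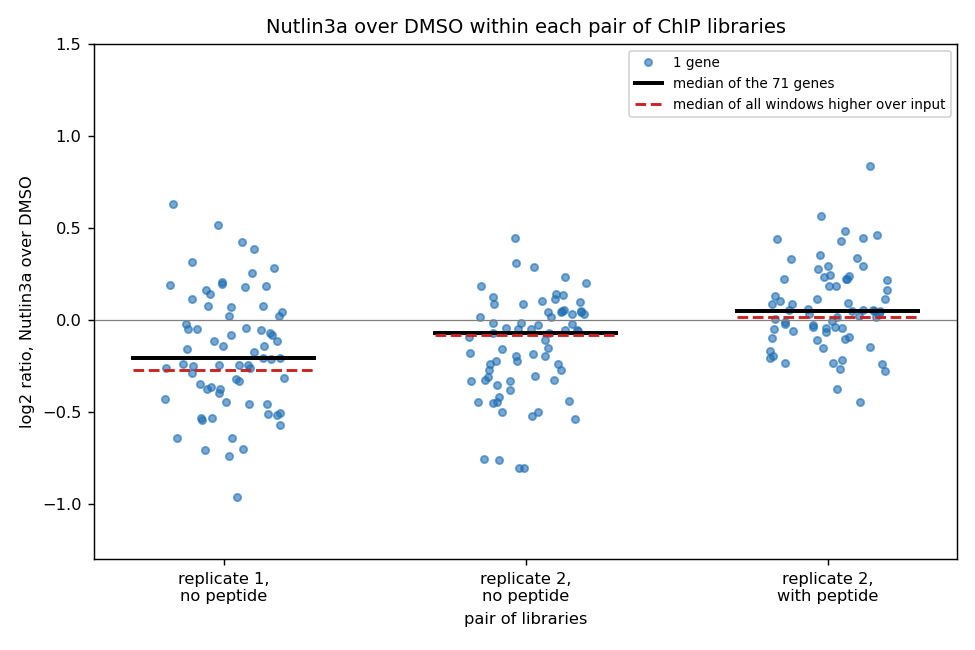
Log2 ratio of Nutlin3a to DMSO at the 71 genes (points) within each pair of ChIP libraries, with their median (black line) and the median of all windows higher than input (red dashed line). The black line lies at -0.20, -0.07 and 0.05, close to the red line in each pair.

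The peptide by itself also left no gene past the threshold. Under DMSO, 1 peptide library against 2 without gave 0 of 71 higher and 0 lower, where 0% of all windows were called in either direction; at an unadjusted p under 0.05 edgeR gave 0, where 0.687% of all windows were higher and 0.83% lower, and DESeq2 and limma-voom called 0. The median log2 change was -0.12 (22 of 71 above 0, 31.0%), against -0.02 over all windows. Of the windows higher than input 33.6% were above 0, and of all windows 47.6%. The smallest p-values below 0 were those of MRPS6 (93.0 and 86.1 CPM without peptide, 58.9 CPM with it; log2 -0.59 ± 0.29 SE), MRPL13 (70.7 and 35.02 CPM, then 26.2 CPM; -0.999 ± 0.498) and MRPL1 (79.6 and 43.9 CPM, then 35.2 CPM; -0.80 ± 0.41). For MRPL13 and MRPL1 the 2 DMSO libraries without peptide differed from each other by more than replicate 2 differed from the peptide library, which is also a replicate 2. The window of MRPS6 lies wholly inside that of SLC5A3. Above 0 came MRPS30 (0.37 ± 0.27), MRPL52 (0.35 ± 0.32) and MRPL23 (0.27 ± 0.28).

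Under Nutlin3a the counts were again 0 of 71 higher and 0 lower, with 0% of all windows called; at an unadjusted p under 0.05 edgeR gave 2 higher and 0 lower, where 0.564% of all windows were higher and 1.88% lower, and DESeq2 and limma-voom called 0. The median log2 change was 0.07 (48 of 71 above 0, 67.6%), against -0.02 over all windows. Of the windows higher than input 69.3% were above 0, and of all windows 47.7%. MRPS30 had 51.0 and 47.4 CPM without peptide and 74.9 CPM with it (log2 0.60 ± 0.28 SE, edgeR adjusted p = 1), and MRPL23 had 53.6 and 71.4 CPM without and 96.0 CPM with it (0.60 ± 0.28). MRPL11 had 41.3 and 32.3 CPM without and 55.4 CPM with it (0.59 ± 0.35). In these 3 genes, named for the smallest p above 0, the peptide library lay above both others. That choice favours such an order, and its share over all windows was not computed. MRPL35 (-0.52 ± 0.42), MRPL47 (-0.40 ± 0.34) and MRPS18B (-0.40 ± 0.39) had the smallest p-values below 0. Without Nutlin3a replicate 1, MRPL47 was at 0.054 and MRPS18B at 0.17, and without Nutlin3a replicate 2 the median of the 71 genes was -0.01.

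The test of whether the peptide changed the response to Nutlin3a called 0 of 71 genes in either direction, where 0% of all windows were called; edgeR gave 0 at an unadjusted p under 0.05, where 0.413% of all windows were higher and 0.641% lower, and DESeq2 and limma-voom called 0. The median of the difference between the log2 responses was 0.24 (54 of 71 above 0, 76.1%), against -0.01 over all windows. It was 0.20 over the windows higher than input and 0.35 over cytosolic ribosomal protein genes. Of the windows higher than input 75.7% were above 0, and of all windows 49.1%. This comparison uses the same libraries as the ones before it, so its direction is not separate evidence. MRPS6 (0.71 ± 0.41 SE), MRPL55 (0.70 ± 0.41) and MRPL50 (0.72 ± 0.48), the last a mitospecific gene whose window overlaps that of ZNF189, had the smallest p above 0. MRPS18A (-0.41 ± 0.58), MRPL42 (-0.27 ± 0.47) and MRPL52 (-0.26 ± 0.46) had the smallest below 0, and without Nutlin3a replicate 1 MRPS18A was at 0.10 and MRPL52 at 0.031. The 95% interval of the difference lay within 2-fold for only 14 of 71 genes, so moderate differences were not detectable at this depth and number of libraries.

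The other genes of mitochondrial translation likewise had no member past the threshold under Nutlin3a. The median log2 change was -0.05 for 29 assembly and RNA-modifying factors, -0.14 for 16 translation factors, -0.25 for 17 aminoacyl-tRNA synthetases and -0.21 for 14 transcription factors and regulators, with 11, 4, 2 and 3 values above 0. Within the synthetases VARS2 had -0.73 ± 0.26 (SE) and IARS2 -0.56 ± 0.24 (SE), both with an edgeR adjusted p of 0.982.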

How the data were processed

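The deposited table held raw read counts per start-site window. Per the submitters' processing notes the build was hg38. For the aligner, the counting tool and any filter on reads, the answer is: not given in the sources used here. For ChIP libraries the authors' table had a second column, a signal equal to counts multiplied by a fixed constant of that library, which entered only as an alternative scaling. All value columns were mapped to samples.

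Counts were tested with edgeR 4.0.16 (R 4.3.3) quasi-likelihood fits after filterByExpr (minimum count 10) and TMM scaling: 1 fit of the 6 ChIP libraries with 4 group means, and 1 fit of all 14 libraries with 8 group means for ChIP against input. The lone peptide libraries were assumed to vary like the other groups. P-values were two-sided and adjusted by Benjamini-Hochberg over all tested windows, with a threshold of 0.05. Within-pair ratios used a prior count of 2. DESeq2 1.42.0 and limma-voom (limma 3.58.1) were alternatives. The fits were also run on simulated counts in which few windows were changed. That cannot check how ChIP and input libraries are scaled to each other.

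The gene set and the lists were chosen with earlier results of these data known. Genes named were a preset list of ribosome parts, up to 10 passing or 3 per direction with the smallest p in each comparison, the 5 highest and lowest in ChIP level, and overlapping neighbours; others (the examples of library order, the genes of other lists, the chromosome 17 group) were chosen after values were seen. Replicate libraries differed beyond counting noise (chi-square per degree of freedom 4.30 for DMSO and 5.08 for Nutlin3a) and each was counted.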

Additional observations from a re-analysis of the deposited data

How the results depend on the processing

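Limits: ChIP calls rest on inputs of few reads, groups of 1 or 2 libraries and scaling relative to other windows; the cause of each change below was not tested unless the setting itself gives it (fewer genes, fewer libraries). Over input the median log2 fold was 0.81 and became 0.62 with DESeq2's size factors, 0.51 with total counts (all windows then moved from -0.04 to -0.23 and -0.33), 0.23 in windows averaging at least 50 counts and 1.05 in DMSO libraries without peptide alone. The count of genes higher, 41, became 34 with DESeq2's size factors and 28 with total counts. It was 7 (with 1 lower) in windows averaging at least 50 counts, 18 in DMSO alone and 26 in windows without overlap. It was 25 for MRPL and 16 for MRPS symbols. Leaving out 1 ChIP library without peptide gave 33 to 37, and medians of 0.72 to 0.78. The lone peptide libraries were not left out, here or below.

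No alternative called any gene in the other comparisons. The Nutlin3a median of -0.15 became -0.016 when windows averaged at least 50 counts and 0.36 with the authors' constants; leaving out 1 library gave -0.26 to -0.086. With peptide it was 0.45 with the authors' constants, and the median of all windows was then 0.38. The peptide median under DMSO became -0.36 with the authors' constants and -0.21 for MRPL symbols (leaving out 1 library, -0.15 to -0.05), and under Nutlin3a -0.26 with the authors' constants (leaving out 1 library, -0.01 to 0.14); all windows moved to -0.25 and -0.33. The difference of responses, 0.24, became 0.16 with total counts, with the authors' constants and in windows without overlap, 0.084 in windows averaging at least 50 counts and 0.12 for MRPS symbols; leaving out 1 library gave 0.17 to 0.23.

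The labels do not say what a replicate number shares, and there were only 2 pairs (correlation of same-numbered deviations 0.45). With the replicate number as a block the medians were -0.16 for Nutlin3a, -0.08 and 0.15 for the peptide under DMSO and Nutlin3a, and 0.25 for the difference, with 0 genes called in each; 43 were higher over input. The peptide effect under Nutlin3a at MRPS18B changed sign to 0.098 with the block.

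Among named genes, 317 of 373 values over input kept direction and side of the threshold, 40 lost the call (4 of them with a change of sign) and 5 gained one (1 with a change of sign); 16 changed sign in all. Of the 24 named genes called, 8 (MRPL3, MRPL12, MRPL20, MRPL40, MRPL53, MRPL57, MRPS2 and MRPS26) passed under every alternative that tested them. Those of changed sign were MRPS31 (-0.14 with DESeq2's size factors, -0.25 with total counts and, leaving out 1 library, -0.057 to 0.026), MRPL35 (-0.037 and -0.14 with these scalings and, leaving out 1 library, -0.045 to 0.19), MRPL44 (-0.099 with total counts) and, in windows averaging at least 50 counts, MRPL4 (-0.40), MRPL27 (-0.19), MRPL37 (-0.65), MRPL45 (-0.51), MRPL15 (-0.11), MRPS30 (-0.25) and MRPS7 (-0.24). MRPS30 under Nutlin3a was 0.0043 with the authors' constants. Leaving out 1 library, MRPS14 under Nutlin3a ran from -0.30 (without Nutlin3a replicate 1) to 0.56, the peptide values under Nutlin3a of MRPL47 from -0.79 to 0.054 and of MRPS18B from -0.85 to 0.17, and the differences at MRPS18A from -0.82 to 0.10 and at MRPL52 from -0.54 to 0.031. In the core promoter (100 bases before to 50 after the start) the shares with an E-box, GC box, CCAAT and TATA motif fell to 1.59%, 42.9%, 15.9% and 0%. The coding promoters also fell in this shorter stretch, to 5.33%, 51.0%, 23.3% and 5.54%. Genes with ChIP at least 2 times input were all higher over input (24 of 24, median 1.37), which the choice by the same ratio fixes.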

Other observations

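Another 7 genes with MRPL or MRPS symbols carried non-coding accessions in the table and so lay outside the 71. Of these, 6 were higher in ChIP than in input (edgeR adjusted p under 0.05) and 0 lower, with a median log2 fold of 1.19 and a median of 103 CPM. MRPS25, a small-subunit protein, had 103 CPM and a log2 fold of 1.87 ± 0.28 (SE), MRPL49 had 144 CPM and 1.36 ± 0.23, MRPL18 had 129 CPM and 1.19 ± 0.23, MRPL32 had 78.3 CPM and 1.57 ± 0.34, and MRPL48 had 84.3 CPM and 1.14 ± 0.26. MRPL30, at 55.9 CPM in ChIP and 55.5 CPM in input, had -0.02 ± 0.26. Their median change under Nutlin3a was -0.06, with 0 of 7 called.

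Genes of the mitochondrial ribosome without an MRP name were also read. DAP3, the GTP-binding protein of the small subunit, had 90.3 CPM and a log2 fold over input of 0.66, AURKAIP1 128 CPM and 1.15, PTCD3 74.3 CPM and 1.46, and GADD45GIP1 96.8 CPM and 1.06, all past the threshold, while CHCHD1 (77.0 CPM, 0.51) and OXA1L (66.0 CPM, 0.54), the inner-membrane insertase that binds the ribosome, were not. Under Nutlin3a the value of DAP3 was 0.00 ± 0.21 (SE, edgeR adjusted p = 1).

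The overlapping windows of neighbours were also read side by side. HIRA had 181 CPM and a log2 fold over input of 1.86, and MRPL40 223 CPM and 1.90. SKA3 had 168 CPM and 1.73, and MRPL57 161 CPM and 1.85. At the pair of NDUFB5, a complex I subunit, with 56.5 CPM and 0.18, and MRPL47, with 60.5 CPM and 0.35, neither passed. Shared reads enter both values of a pair.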
